A study of Homo sapiens and Mus musculus with 9 samples.

Results

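CDKN1A and DDB2 are textbook target genes of the tumour suppressor p53, and their footprints were followed here through starvation of HEK293 cells and transfection of a trans-RNA directed at ATF4. The transcripts were chosen by symbol: a transcript was taken where the small RNA peak lists paired it with the name CDKN1A or DDB2. This gave 2 transcripts, 1 for each gene, of 16984 human transcripts listed in the footprint tables and of 5745 symbols named in the peak lists. A symbol is paired with a transcript only where a peak is listed, so each gene had at least 1 small RNA peak by the choice.

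The series holds 9 samples in 9 groups of 1 library, and 6 of them are used here. HEK293 is an established human line from embryonic kidney, made with adenovirus DNA whose early proteins bind p53, so p53 signalling in this line is not that of an unmodified cell. All 4 ribosome profiling (Ribo-seq) libraries came from wild-type cells of this line. One group was labelled control, another was starved, and the remaining pair, trans1 and trans2, was starved and transfected with trans-RNA against the main reading frame of ATF4. Trans1 and trans2 carry an identical treatment label, which does not say if the same RNA was used in both. The sources used here do not say what was withdrawn from the cells, or for how long. Starved cells given a control RNA are not among these groups, so effects of the trans-RNA and of transfection cannot be told apart. The other 2 libraries, titled as control, held small RNA of HEK293 cells. They held either all small RNA (total) or small RNA made ligatable by removing a 5′ cap (cap). No small RNA library titled as starved or transfected is in the series. The 3 mouse liver libraries were not analysed here.

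p53 is a transcription factor that is stabilised after DNA damage and several other stresses, and it binds a bipartite DNA element near its target genes. CDKN1A encodes p21, an inhibitor of cyclin-dependent kinases that holds cells before S phase and also binds the replication clamp PCNA. DDB2 encodes the damage-recognition subunit of the UV-DDB complex, which with DDB1 and a cullin ligase marks ultraviolet lesions for nucleotide excision repair. The translation of selected mRNAs is also regulated during amino acid and nutrient stress, through the pathway that raises ATF4.

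On the RefSeq assembly GRCh38.p14, CDKN1A spans chr6:36676463-36687332 and DDB2 spans chr11:47214454-47239217. The transcripts measured were ENST00000405375 for CDKN1A, with 495 coding nucleotides, and ENST00000256996 for DDB2, with 1284. RefSeq promoter windows, from 250 bases before to 50 bases after an annotated start, were searched on both strands for the p53 consensus element of 10 bases. A site was called where 2 copies of the element lay at most 13 bases apart, and overlapping copies were not paired. DDB2 has 2 windows, and the one at chr11:47214724-47215023 held such a pair on the plus strand, 1 base apart, from base 6 to base 26 counted from 1 at the annotated start. It is shown because it is the only p53 site found in the windows of the 2 genes. The capitals mark the 2 copies, and the stretch covers chr11:47214974-47215003 on GRCh38.p14.
DDB2: ggtttGAACAAGCCCtGGGCATGTTTggcg

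The other DDB2 window, chr11:47214204-47214503, and the CDKN1A window, chr6:36678464-36678763, held 0 copies of the element. These letters were searched in these windows alone, and the absence of a match there says nothing about binding elsewhere at the genes. Of all 35116 windows in the table, 2329 (6.63%) held at least 1 copy and 10 (0.0285%) held a pair within that spacing. Among 53 p53 target genes with a window, 12 held a copy, where 8.06% of all genes with a window did, and 1, DDB2, held a pair. A match is a description of the sequence, and whether p53 occupied it in these cells was not measured.

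Footprint reads were recovered from the deposited densities for 10114 transcripts, and library depth over these was 10506295 in the control, 9255965 under starvation, 6046086 in trans1 and 7411833 in trans2. Each value below is a count of reads or reads per 1000000 of that depth (CPM), and each interval is an exact 95% interval of the count or of the ratio of 2 counts. With 1 library per group there was no replicate, no test and no p-value. The intervals describe error of counting alone, because each group holds 1 library. Without molecular identifiers a read is not a separate molecule, so the intervals may be too narrow even for that. Of 10 HEK293 marker genes, 5 had a symbol and 2 were measured, NEFL and CDH2. Their summed level was 139, 116, 113 and 98.4 CPM in control, starvation, trans1 and trans2. Markers of liver, blood and fibroblasts could not be checked, since 0 of 6, 0 of 5 and 0 of 5 were measured.

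Both genes had more footprints under starvation than in the control, DDB2 by 2.60-fold and CDKN1A by 1.64-fold. Both had fewer in trans1 than in starvation, and in trans2 neither gene's total over the transcript differed from starvation beyond counting error. The coding reads of CDKN1A taken alone were 1.22-fold of starvation in trans2 (1.08 to 1.38), an interval above 1. DDB2 was further from 1 than CDKN1A in the first of these comparisons and in trans1. No HEK293 RNA-seq was used here, so a change in mRNA and a change in translation cannot be told apart, nor can fewer cells with the mRNA and less of it per cell.

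CDKN1A had 478 reads in the control, 689 under starvation, 364 in trans1 and 614 in trans2. Scaled to depth these were 45.5 CPM (41.5 to 49.8), 74.4 CPM (69.0 to 80.2), 60.2 CPM (54.2 to 66.7) and 82.8 CPM (76.4 to 89.7). The control was lowest and trans2 highest, and the only neighbours in this order whose ratio interval held 1 were starvation and trans2. The step from control to trans1 was 1.32-fold (1.15 to 1.52), that from trans1 to starvation 1.24-fold (1.09 to 1.41) and that from starvation to trans2 1.11-fold (0.997 to 1.24).

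DDB2 had 582 reads in the control, 1333 under starvation, 564 in trans1 and 1139 in trans2. In CPM this was 55.4 (51.0 to 60.1), 144 (136 to 152), 93.3 (85.7 to 101) and 154 (145 to 163). The order of the libraries was the same as for CDKN1A, and again starvation and trans2 did not differ beyond counting error. The steps were 1.68-fold (1.5 to 1.89) from control to trans1, 1.54-fold (1.40 to 1.71) from there to starvation and 1.07-fold (0.985 to 1.16) from starvation to trans2. Per kilobase of coding sequence, the scale on which the 2 genes can be set side by side, CDKN1A was at 91.9, 150, 122 and 167 CPM and DDB2 at 43.1, 112, 72.7 and 120 CPM. CDKN1A was thus the higher of the 2 per length in each of the 4 libraries.

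**Figure D1:**
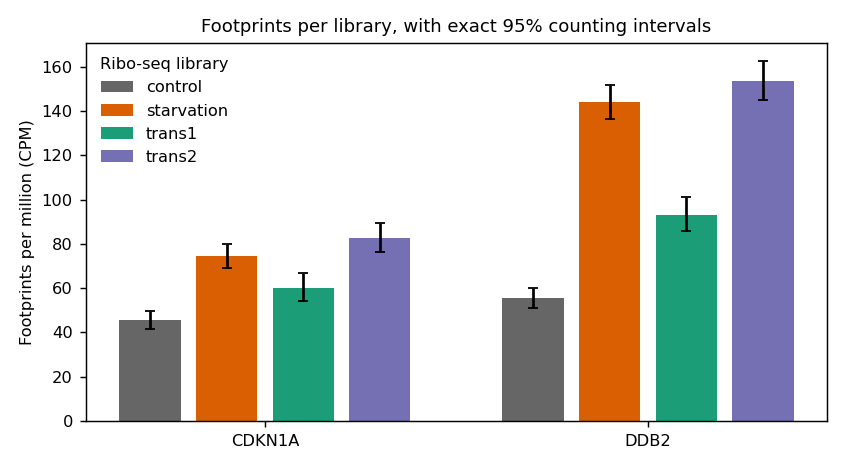
Footprint level of CDKN1A and DDB2, in CPM, in the control, starvation, trans1 and trans2 libraries, with 1 bar per library and whiskers for the exact 95% counting interval. Both genes are lowest in the control, at 45.5 and 55.4 CPM, and highest in trans2, at 82.8 and 154 CPM.

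The first comparison, starvation against control, describes how the footprints of these p53 targets stood once cells were starved. On the log2(CPM + 1) scale, which slightly understates the change of low genes, the difference was 1.36 for DDB2, a fold of 2.60 (2.36 to 2.87). For CDKN1A it was 0.70, a fold of 1.64 (1.45 to 1.84). Of the 2 genes, DDB2 passed a 2-fold size rule, which 2.54% of 10107 transcripts passed in the same direction and 1.89% passed downward. Only 0.851% of the transcripts had a larger log2 ratio than DDB2, which ranked 87, and 6.99% had a larger one than CDKN1A. The median over all of them was -0.0028, so the 2 genes stood above a distribution centred near 0.

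The second comparison set trans1 against starvation. DDB2 differed by -0.62 on the log2 scale (fold 0.648, 0.586 to 0.715), and CDKN1A by -0.30 (fold 0.809, 0.710 to 0.920). Both intervals lay below 1, and neither gene passed the 2-fold rule, which 1.24% of 10102 transcripts passed upward and 1.38% downward. The ratio of CDKN1A was exceeded by 73.3% of transcripts and that of DDB2 by 92.9%, around a median of -0.08. Of the 2 genes, DDB2 thus lay further below the middle of all transcripts.

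The third comparison set trans2 against starvation. CDKN1A was at 0.15 on the log2 scale (fold 1.11, 0.997 to 1.24) and DDB2 at 0.09 (fold 1.07, 0.985 to 1.16). Both intervals held 1 for the whole transcript, that of the CDKN1A coding region alone did not, and neither gene passed the 2-fold rule that 1.87% of 10112 transcripts passed upward and 0.218% downward. Both ratios were close to the middle of all transcripts, with 37.6% above CDKN1A and 43.7% above DDB2. The trans1 and the trans2 comparison use the same starvation library, so their values are side by side and not independent.

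The direct comparison of trans2 with trans1 does not use that library. It gave 0.71 for DDB2 (fold 1.65, 1.49 to 1.83) and 0.45 for CDKN1A (fold 1.38, 1.21 to 1.57), both higher in trans2. In this comparison 4.45% of 10110 transcripts were at least 2-fold higher and 0.95% at least 2-fold lower, and 0 of the 2 genes passed either. The median of all transcripts was 0.11, with 11.5% above DDB2 and 23.9% above CDKN1A.

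**Figure D2:**
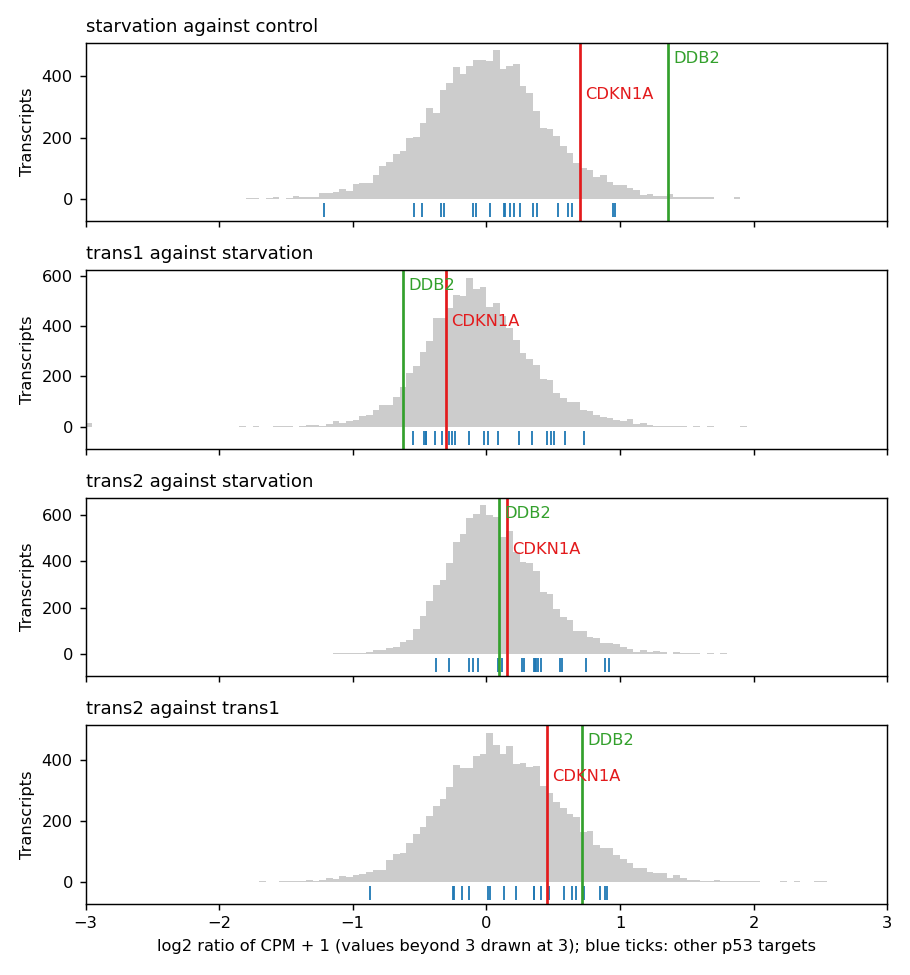
Histograms of the log2 ratio of CPM + 1 over all transcripts, in number of transcripts, for the 4 comparisons, with vertical lines at CDKN1A and DDB2 and blue ticks at the other measured p53 target genes. DDB2 is the highest p53 target in starvation against control, at 1.36, and, over whole transcripts, the lowest in trans1 against starvation, at -0.62.

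The reads were not spread evenly along either mRNA. In CDKN1A the 30 nt before the start codon held 30 reads in the control, 66 under starvation, 25 in trans1 and 34 in trans2. That was 6.28%, 9.58%, 6.87% and 5.54% of the transcript's reads. This stretch was highest under starvation, 2.50-fold above the control (1.60 to 3.98). It was 0.580-fold of starvation in trans1 (0.351 to 0.932) and 0.643-fold in trans2 (0.412 to 0.987). Its interval in trans2 lay below 1, while the whole coding region of CDKN1A was 1.22-fold of starvation there (1.08 to 1.38). Positions are as deposited, and their offset to the ribosome's site on the mRNA is not given. Reads at positions before the start codon were therefore not assigned to ribosomes ahead of that codon or on it.

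The first 100 coding nt of CDKN1A had 59, 69, 53 and 96 reads in the same order of libraries, with trans2 highest and 1.74-fold above starvation (1.26 to 2.40). The whole coding region had 405, 556, 281 and 543 reads, which is 1.56-fold from control to starvation (1.37 to 1.78), close to the ratio over the whole transcript. Its share of the transcript's reads was 84.7%, 80.7%, 77.2% and 88.4%, lowest in trans1. Reads outside the coding region and its flanks numbered 43, 67, 58 and 37. They made 15.9% of the CDKN1A reads in trans1 and 6.03% in trans2, where they were 0.520-fold of trans1 (0.335 to 0.799). Behind the stop codon of CDKN1A the 31 nt held 0 reads in each library, which at a limit of 3 reads over the transcript's total allows a share of up to 0.628%, 0.435%, 0.824% and 0.489%.

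Single positions of CDKN1A differed in order between libraries. Positions count from 0 at the first base of the start codon, and the sources used here do not give the offset between such a position and the ribosome's site on the mRNA. Position 177 held 43 reads in the control and 48 in trans2 but 18 under starvation and 10 in trans1. Position -3 held 16, 33, 7 and 8 reads, highest under starvation. Position -12, where the mean over transcripts was highest upstream of the start in every library, held 0 CDKN1A reads in all 4, as in 24.2% of the 1564 transcripts with at least 200 reads in the start window.

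**Figure D3:**
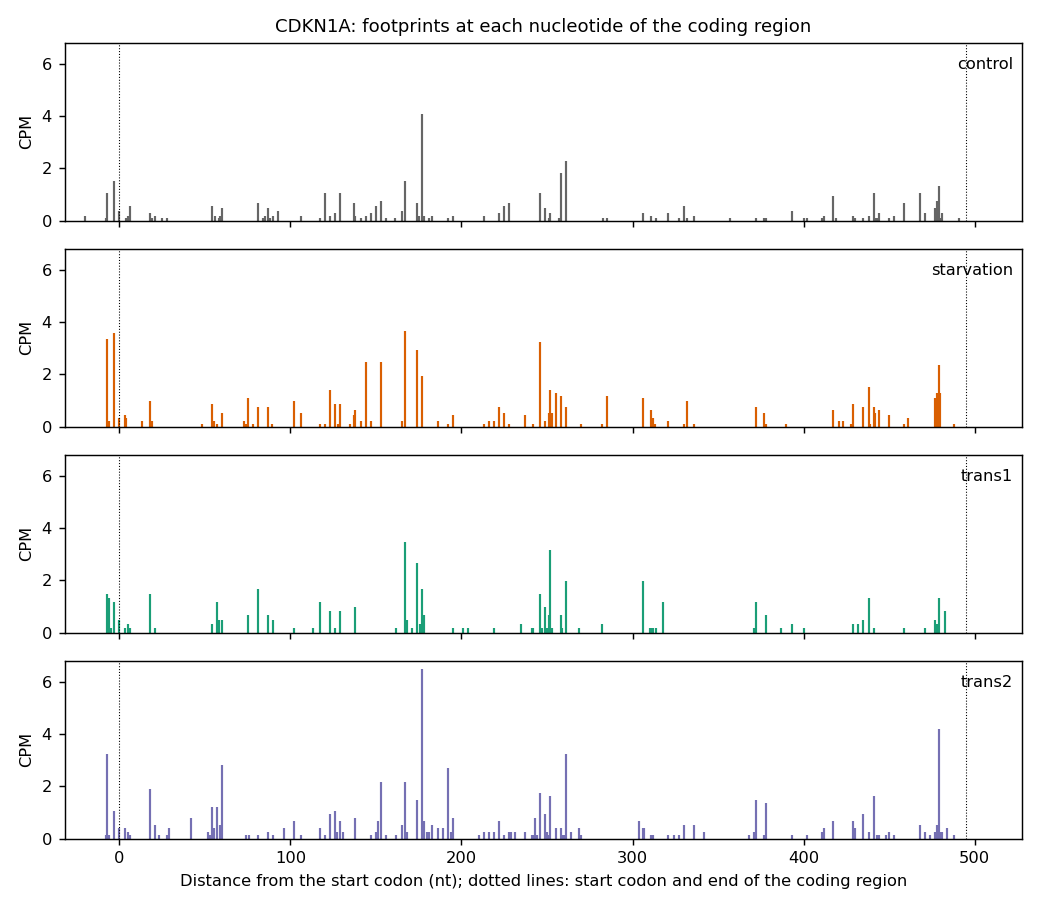
CPM at each position of CDKN1A, counted in nucleotides from the first base of the start codon, in 1 panel for each of the 4 Ribo-seq libraries. The stretch before the start codon is densest under starvation, with 66 reads, and position 177 stands out in the control, with 43 reads, and in trans2, with 48.

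DDB2 showed a different layout. Its last 300 coding nt held 192 reads in the control, 559 under starvation, 253 in trans1 and 429 in trans2. That window was 3.30-fold higher under starvation than in the control (2.8 to 3.91), against 2.69-fold in the first 100 coding nt (1.91 to 3.83) with 49, 116, 46 and 131 reads. In the next 200 coding nt there were only 38, 27, 19 and 35 reads, 0.807-fold from control to starvation with an interval that held 1 (0.474 to 1.36). The starvation difference of DDB2 was therefore not the same in every window of the coding region. Between the windows and beyond them lay 293, 624, 241 and 504 reads, 2.42-fold from control to starvation (2.10 to 2.79).

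The log2 ratio of the stop window to the start window of DDB2 was 1.13, 1.96, 1.94 and 1.36 in control, starvation, trans1 and trans2. Between 86.2% and 90.7% of transcripts with at least 100 reads in the coding windows had a lower ratio. The DDB2 reads were thus weighted to the end of the coding region in all 4 libraries. Position -159 before the stop codon held 15, 97, 37 and 78 reads, and position -180 held 13, 62, 5 and 30. Scaled to depth, position -159 was at 10.5 CPM both under starvation and in trans2, while position -180 was highest under starvation, at 6.70 CPM. At position 45 after the start of DDB2 there were 8, 53, 2 and 23 reads, again highest under starvation and lowest in trans1.

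Positions before the DDB2 start codon, again with an offset to the ribosome's site that is not given, showed another pattern. The 30 nt there held 10 reads in the control, 5 under starvation, 4 in trans1 and 37 in trans2. Trans2 stood alone, 9.24-fold above starvation (3.62 to 30.1) and 7.55-fold above trans1 (2.71 to 29.1), on few reads. Of its 37 reads, 23 lay at position -12 and 13 at position -24, where the other libraries had 3, 2 and 0 reads and 4, 2 and 4 reads. Position -12 is also where the mean over transcripts was highest before the start codon in every library. The first 100 coding nt were also higher in trans2 than in starvation, 1.41-fold (1.09 to 1.83). The next 200 nt were at 1.62-fold of starvation, with an interval that held 1 (0.952 to 2.78). Start-window reads alone put DDB2 in trans2 at 0.74 on the log2 scale over starvation, while the stop window put it at -0.055, and the whole transcript was at 0.09. Behind the DDB2 stop codon there were 0, 2, 1 and 3 reads in 31 nt.

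**Figure D4:**
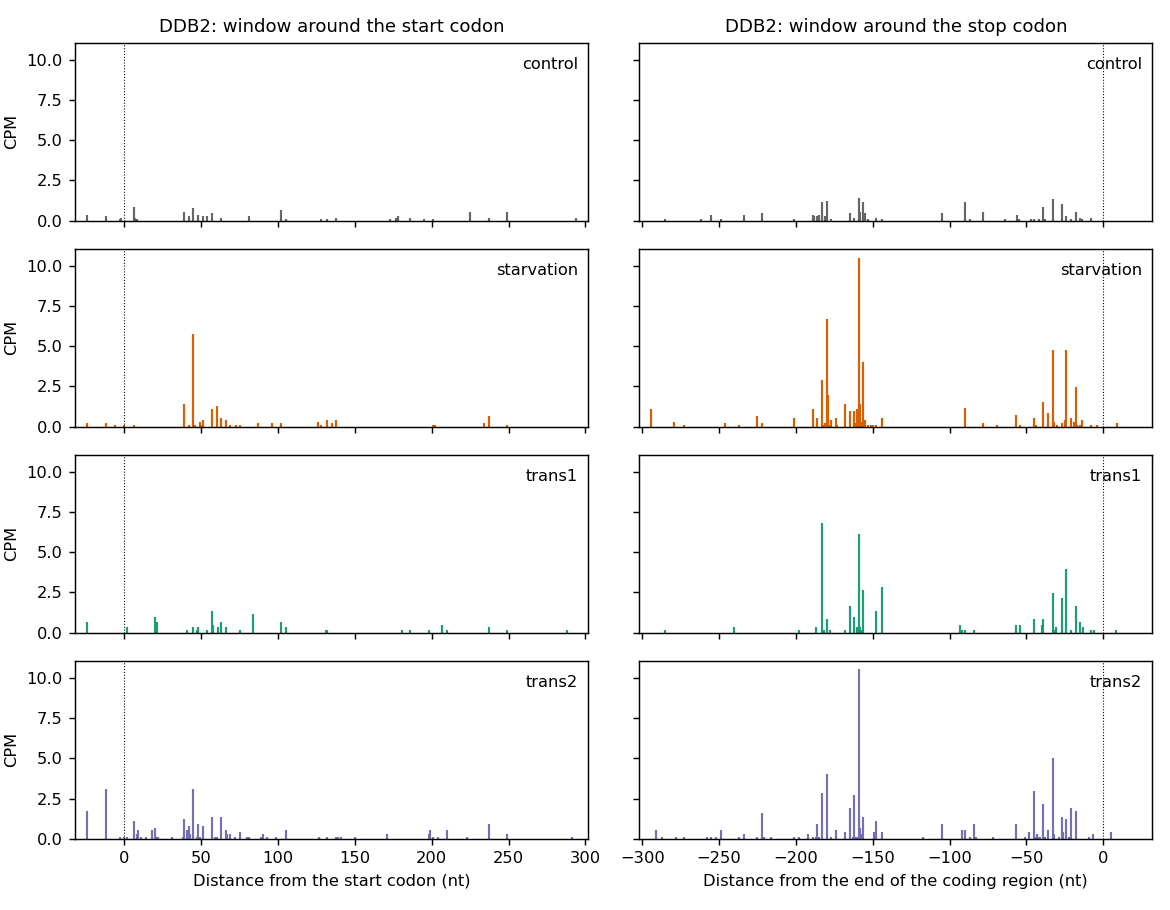
CPM around the start codon and before the stop codon of DDB2, by position in nucleotides, in 1 panel for each of the 4 Ribo-seq libraries. Position -159 before the stop codon is equally high under starvation and in trans2, at 10.5 CPM, and reads before the start codon, 37 of them, stand out in trans2.

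Most coding reads of both genes lay in 1 reading frame. For CDKN1A, 81.9%, 78.4%, 78.9% and 78.2% of the coding-window reads were in the annotated frame in control, starvation, trans1 and trans2. The medians over transcripts with at least 100 such reads were 86.6%, 87.8%, 85% and 86.0%, and 20.1% to 29.6% of those transcripts had a lower share than CDKN1A. In CDKN1A, as in other short transcripts, the start and stop windows overlap, and reads in the overlap entered these shares from both windows. In the control this gave 491 coding-window reads for CDKN1A, where its whole coding region held 405. DDB2 had 84.6%, 88.2%, 86.2% and 86.9%, near the medians in all 4 libraries.

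The authors' deposited table of log2 fold changes per reading frame listed CDKN1A with its coding frame at 0.28 for starvation over control, -0.51 for trans1 over starvation and -0.06 for trans2 over starvation. The medians of the 2118 coding frames in the authors' deposited table were -0.14, -0.48 and -0.25, so CDKN1A lay above the middle for starvation and near it for trans1. The authors' deposited table listed DDB2 as a truncated frame at 0.99, -0.73 and -0.28, and 0.584% of 9417 truncated frames had a larger value for starvation over control. The medians of that class in the authors' deposited table were -0.03, -0.27 and -0.10. For trans2 over starvation both genes were below 0 in the authors' deposited table, where the recovered reads of the whole transcripts gave 0.15 and 0.09. The scaling of the deposited values is not given, and the medians of both classes were below 0 there too. For trans2, 23.8% of coding frames lay above CDKN1A and 70.7% of truncated frames above DDB2. The authors' deposited table also listed an upstream frame of DDB2 at 0.21, 0.38 and 0.09. This upstream frame was thus higher in trans1 than in starvation there, while the truncated frame was lower. In the reads recovered here the 30 nt before the DDB2 start held 4 reads in trans1, and the position of the upstream frame was not determined.

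Each gene had exactly 1 small RNA peak, and both lay on the sense strand of the 5′ UTR in the cap library. The CDKN1A peak lay 231 nt before the start codon with 30 reads, and the DDB2 peak 34 nt before it with 7 reads. Among 2791 cap sense peaks in 5′ UTRs, the median was 6 reads and the upper quartile 11. The CDKN1A peak thus lay in the upper part of that range, with 8.49% of peaks higher, and the DDB2 peak near the middle, with 37.7% higher. The median position of the class was 137 nt before the start codon, so DDB2 lay closer to its start codon and CDKN1A further away than that. Neither gene was listed in the total library or with an antisense peak, where the lists hold no peak under 4 reads. A single peak of this kind was not rare: 1030 of 5778 transcripts with a peak (17.8%) had only a cap sense 5′ UTR peak. The peaks carry no genome coordinate, so the DDB2 peak was not placed against the p53 site printed above.

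**Figure D5:**
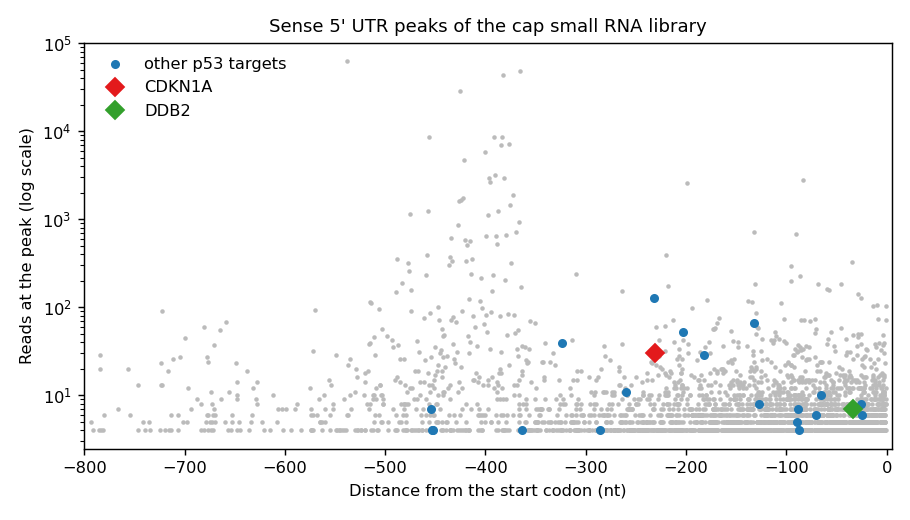
Reads of each cap sense 5′ UTR peak, on a log axis, against its position in nucleotides before the start codon, with CDKN1A and DDB2 as diamonds and other p53 targets as blue points. CDKN1A lies at -231 nt with 30 reads and DDB2 at -34 nt with 7 reads, and 61 peaks beyond 800 nt are not drawn.

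The other p53 target genes had smaller ratios under starvation than DDB2. Of 65 genes on a list of p53 targets, 28 had a symbol in these files and 22 were measured, the 2 genes included. Under starvation, 13 of the other 20 were above 0 and 7 below, with a median log2 ratio of 0.16 against -0.0028 for all transcripts. On this scale 0 of the 20 were at least 2-fold higher, and SERTAD1 alone was at least 2-fold lower, at -1.21. TNFRSF10D, a decoy receptor for the death ligand TRAIL, was at 0.96, the stress-induced IER5 at 0.94 and PMAIP1, the BH3-only protein NOXA, at 0.64. The lowest after SERTAD1 were SESN2 at -0.54 and SESN1 at -0.32, both stress-induced sestrins, with XRCC5 at -0.48 and the TRAIL receptor TNFRSF10A at -0.34. The list so held members on both sides of 0, with DDB2 highest. Over all transcripts 49.7% were above 0. These totals take in reads anywhere on a transcript, so the list was also read on the windows around the start and stop codon alone. There DDB2 was again highest, at 1.44, with CDKN1A at 0.69 and a median of 0.18 over the others, and SESN1 turned from -0.32 to 0.33. On the windows 13 of the other 20 were above 0, against 46.9% of all transcripts, whose median was -0.04.

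In trans1 against starvation, 9 of the other 20 were above 0 and 11 below, with a median of -0.08, close to that of all transcripts, of which 41.3% were above 0. DDB2 was the lowest on the list at -0.62, followed by RPS27L at -0.55, the pro-apoptotic CDIP1 at -0.46, TNFRSF10D at -0.45 and RRM2B, a ribonucleotide reductase subunit, at -0.45. The highest were GADD45B at 0.73, TSPYL2 at 0.59, RAP2B at 0.50, SERTAD1 at 0.48 and the ubiquitin ligase subunit FBXW7 at 0.45. The interval of SERTAD1 held 1. On the windows alone DDB2, at -0.51, lay just above RPS27L, at -0.56, and CDIP1, at -0.54. TNFRSF10D, RRM2B and RAP2B turned sign there, to 0.10, 0.16 and -0.39, and 11 of the 20 were above 0 with a median of 0.041. All transcripts had 40.2% above 0 on the windows, with a median of -0.11.

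In trans2 against starvation, 15 of the other 20 were above 0 and 5 below, with a median of 0.32 against 0.04 for all transcripts, of which 54.6% were above 0. BBC3, the BH3-only protein PUMA, was at 0.92, SERTAD1 at 0.89, GADD45B at 0.74, SESN2 at 0.56 and PERP at 0.55. The lowest were XRCC5 at -0.38, TSPYL2 at -0.28, ANKRA2 at -0.13, TNFRSF10D at -0.10 and SESN1 at -0.06. DDB2, at 0.09, and CDKN1A, at 0.15, lay below the median of the others. On the windows alone they lay above it, at 0.16 and 0.21 against 0.13, with 13 of the 20 above 0, SESN2 at -0.15 and TNFRSF10D at 0.22. All transcripts had 53.6% above 0 on the windows, with a median of 0.04.

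In trans2 against trans1, 15 of the other 20 were above 0, with a median of 0.36 against 0.11 for all transcripts, of which 60.4% were above 0. RPS27L at 0.90, PERP at 0.89, CDIP1 at 0.85, RRM2B at 0.73 and DDB2 at 0.71 were highest, and TSPYL2 was lowest at -0.87. On the windows alone DDB2 was at 0.67, RRM2B turned to -0.06, and the median of the others was 0.12, where that of all transcripts was 0.15.

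Of 24 genes that act on p53, 7 were measured. Over whole transcripts 1 of 7 was above 0 under starvation, 7 of 7 in trans1 and 6 of 7 in trans2, with medians of -0.33, 0.41 and 0.26. Of all transcripts 49.7%, 41.3% and 54.6% were above 0, with medians of -0.0028, -0.08 and 0.04. On the windows alone the counts were 1 of 7, 4 of 7 and 2 of 7, with medians of -0.14, 0.036 and -0.23, so no direction is given for the list in trans2. All transcripts had 46.9%, 40.2% and 53.6% above 0 on the windows, with medians of -0.04, -0.11 and 0.04. USP7, the deubiquitinase of MDM2 and p53, shows the difference between totals and windows most. Its whole transcript was at 596, 2143, 3322 and 5287 CPM in control, starvation, trans1 and trans2, but its windows held 298, 258, 146 and 135 reads, which were 4.76%, 1.30%, 0.727% and 0.345% of its reads. In CPM the windows stood at 28.4, 27.9, 24.1 and 18.2, so the higher totals lay outside them. RCHY1, a ubiquitin ligase for p53, was at 1.70 in trans2 over starvation in total and at -0.58 in the windows, which held 5.32% of its reads in trans2.

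A list of 34 cell cycle genes was set beside p21, with cyclins, kinases, kinase inhibitors, PCNA and others. Of these 10 were measured. Under starvation 4 were above 0, against 49.7% of all transcripts, with a median of -0.08 against -0.0028. The related kinase inhibitors CDKN1B, at 0.44, and CDKN1C, at 0.39, were highest there, and CCNB1, the mitotic cyclin, lowest at -0.77. CDKN1A, at 0.70, lay above both relatives. For CDKN1C, 1 position held 49.7% of its window reads in the control and 68.3% under starvation, so much of its window count rests on that position. In trans1 CDKN1C was lowest of the measured genes of this list, at -0.76. There 2 of 10 were above 0, against 41.3% of all transcripts, with a median of -0.22 against -0.08. In trans2 CDKN1C was highest, at 0.72, with 7 of 10 above 0, against 54.6%, and a median of 0.18 against 0.04. On the windows alone 4, 3 and 7 of 10 were above 0 under starvation, in trans1 and in trans2. All transcripts had 46.9%, 40.2% and 53.6% above 0 there. The list's window medians were -0.047, -0.20 and 0.12, against -0.04, -0.11 and 0.04. CCNB1 was at -1.05 under starvation on the windows, and E2F1 turned from 0.31 to -0.64 in trans1.

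Of 31 genes of nucleotide excision repair and of the DDB2 ligase, 8 were measured, and DDB1, the partner of DDB2, was not among them. Under starvation 2 of 8 were above 0, against 49.7% of all transcripts, with a median of -0.47 against -0.0028. DDB2 was at 1.36. UVSSA was lowest at -0.83, then the replication protein A subunits RPA3 at -0.75 and RPA1 at -0.63. ERCC2, a helicase of TFIIH, was highest at 0.38. On the windows alone 4 of 8 were below 0 with a median of -0.10, RPA3 stayed at -0.75 and DDB2 was at 1.44. All transcripts had 46.9% above 0 and a median of -0.04 on these windows. In trans1 3 of 8 and in trans2 5 of 8 were above 0, with medians of -0.03 and 0.16 that turned to 0.022 and -0.14 on the windows. Of all transcripts 41.3% and 54.6% were above 0, so these counts were near the background. The medians of all transcripts were -0.08 and 0.04, and -0.11 and 0.04 on the windows.

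The genes whose level over the 4 libraries was most like each of the 2 were sought among 2582 transcripts with a symbol and a mean of at least 10 CPM. Likeness was the Euclidean distance between log2(CPM + 1) values after subtracting each gene's mean over the 4 libraries. Nearest to CDKN1A were PIEZO1 at 0.057, CNTROB at 0.099, BHLHE41 at 0.10, ANKRD10 at 0.10 and CA2 at 0.11. PIEZO1, a mechanically gated ion channel, had 24.3, 38.0, 31.1 and 44.1 CPM, in the same order of libraries as CDKN1A. Nearest to DDB2 were AGO4 at 0.24, SAPCD2 at 0.24, ID4 at 0.26, OLR1 at 0.27 and ITPR3 at 0.28. The distance between DDB2 and CDKN1A was 0.52, which put CDKN1A at place 43 from DDB2 and DDB2 at place 501 from CDKN1A. Distances over 4 libraries describe these libraries only, and they use the totals over whole transcripts.

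Capped 5′ UTR peaks were also listed for other p53 targets. Of 28 target genes with a peak, 19 (67.9%) had a cap sense peak in the 5′ UTR, against 34.4% of all symbols. The highest were GADD45B with 129 reads, TSPYL2 with 67 and IER5 with 52, and CDKN1A followed after SESN2, with 39. The 2 genes were chosen from symbols that occur in these lists, so the presence of a peak was required by the choice.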

How the data were processed

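Per the submitters' processing notes, STAR 2.7.10a, Bowtie 1.2.3, cutadapt 2.8 and bcl2fastq 2.20.0.422 were used, with no roles given. The notes list only the mouse build GRCm39, and a build for the human reads is not named in the sources used here. The authors deposited footprint density as a signal per nucleotide, in units of that transcript's own mean in the library, for a window of 30 nt before to 300 nt after the start codon and one around the stop codon. Small RNA peaks were deposited as read counts with their position. A table of log2 fold changes per reading frame was deposited by the authors, and its scaling is not given.

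Density values are whole multiples of a step, so reads were recovered from the steps for 10114 of 16984 transcripts. In 937 short transcripts whose windows overlap, the recovered length equalled the coding length plus 3 in 908, a divisor of it in 29 and conflicted in 0. Recovered totals include reads outside the coding region. Tested on simulated data for starvation against control, 9475 of 10114 simulated transcripts were recovered. Of those recovered, 99.97% had all read ratios right, and 196 of 200 transcripts changed 3-fold were called. The simulated transcripts were those with recovered reads in the real data. Simulated reads were Poisson draws around the control reads, and the changed transcripts were taken from those above a minimum of control reads. Ratios between libraries were scored, so a total wrong by the same factor in every library would pass. No variation between libraries beyond counting was simulated, so this checks the recovery of read ratios and not levels or calls between real libraries. Reads were scaled to 1000000 recovered reads (CPM), a pseudocount of 1 CPM was added, and transcripts under 1 CPM in both libraries were left out. Intervals are exact 95% Clopper-Pearson intervals (Python 3.11.15, scipy 1.17.1).

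Named genes were the 2 members, the 5 highest and 5 lowest p53 targets of a comparison with at least 10 CPM in a library, the 3 highest and 3 lowest of each other list, of which the text gives some, and the 5 nearest patterns. Genes named for their small RNA peaks were chosen after their values were seen. Members and lists were chosen with earlier results of these data known. Of the deposited peak-list transcripts, 2864 with a symbol had recovered reads. Alternatives were gene lists read on the windows alone, other pseudocounts, single windows, leaving out the highest position, other scalings, other thresholds and a minimum of 10 reads per peak.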

Additional observations from a re-analysis of the deposited data

Results flagged for a closer look

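CDKN1A footprints were lower in trans1 and higher in trans2 than in starvation, with a log2 ratio of trans2 over trans1 of 0.45. DDB2 footprints showed the same opposite directions, with a log2 ratio of 0.71. What drew attention is that 2 libraries with the same treatment label lay on different sides of the starvation library. The difference was not tested, since each group holds 1 library, and the trans2 ratios over starvation had counting intervals that held 1 for both genes. Of all transcripts, 41.3% were higher in trans1 than in starvation and 54.6% were higher in trans2. Their median log2 ratios were -0.08 and 0.04, in the same directions as the 2 genes. The share of transcripts with both directions was not counted. The stop window of DDB2 alone put trans2 at -0.055. In the authors' deposited table trans1 and trans2 had the same sign over starvation. CDKN1A was at -0.51 and -0.06, and the truncated frame of DDB2 at -0.73 and -0.28. The scaling there is not given, and the medians of both frame classes were also negative. They were -0.48 and -0.25 for coding frames and -0.27 and -0.10 for truncated frames. Against these medians CDKN1A was near in trans1 and above in trans2, and DDB2 was below in both.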

How the results depend on the processing

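Of 56 alternative values of the CDKN1A and DDB2 ratios, 55 kept the direction of the reported value and 49 lay inside its counting interval. Another pseudocount cannot change the direction of a ratio, and the CDKN1A start and stop windows share reads, so these alternatives are not independent checks. The exception in direction was DDB2 in trans2 against starvation, at -0.055 from the stop window alone and 0.74 from the start window alone. For DDB2 the start window alone gave 0.73 and the stop window alone 1.68 for starvation against control, the start window -0.45 for trans1 against starvation, and the 2 windows 1.19 and 0.46 for trans2 against trans1. A 1.5-fold rule, which takes in more transcripts by construction, counted 2041 transcripts in place of 448 for starvation against control, 1464 in place of 264 for trans1, 1086 in place of 211 for trans2 and 2271 in place of 546 for trans2 against trans1. A minimum of 10 CPM left 165 for trans1, since fewer transcripts are tested. With peaks of at least 10 reads, DDB2 had 0 peaks in place of 1. Reading the gene lists on the windows alone, chosen after seeing the data, turned the sign of 6 medians over the other genes: p53 targets in trans1 against starvation (0.041), genes acting on p53 in trans2 against starvation (-0.23) and against trans1 (-0.10), and repair genes in trans1 (0.022) and trans2 (-0.14) against starvation and in trans2 against trans1 (-0.17). Why totals and windows differ was not tested. No paired analysis was possible because each group holds 1 library, and no library could be left out for the same reason. Counting error alone limits the 4 to 37 reads before the DDB2 start codon and the 7 reads of its peak.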

Other observations

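Besides DDB2, the promoter windows that held a pair of p53 elements within the same spacing belonged to DYNC2H1, EIF2AK3-AS1, LNCTAM34A, LOC105376065, LOC124901737, LOC124903192, MCC, PTCHD4 and PURPL. Transcripts that, like CDKN1A and DDB2, had only a cap sense 5′ UTR peak had recovered reads in 646 cases. Their median log2 ratio was -0.04 for starvation against control, -0.10 for trans1 against starvation and 0.05 for trans2 against starvation. The medians over all transcripts were -0.0028, -0.08 and 0.04.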
